A study of Mus musculus with 8 samples.

Results

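The T cell receptor signalling machinery was followed through 40 mouse genes, taken by name: the CD3 and zeta chains of the receptor, the 2 CD8 chains, the proximal kinases, the adaptors and enzymes that assemble on LAT, the NF-kB pathway proteins Malt1 and Bcl10, CD45 and its partner, surface co-stimulatory and adhesion receptors, and inhibitors of the pathway. All 40 were found by Ensembl identifier among the 30731 genes common to the count files of the 2 cell lines (31053 genes for one line and 53465 for the other). They were listed by name and not by a measured value, but earlier results of these data were known at the time. RNA-seq gene counts of 8 libraries fell into 4 groups of 2, and the study compared the loss of the transcription factor TCF-1, encoded by Tcf7, with its gain. Scid.adh is a thymic lymphoma line that resembles thymocytes at the DN3 stage; its control libraries are labelled wild type and empty vector (control cells below), and the others Tcf7-/- and TCF1 KO. NIH-3T3 is an embryonic fibroblast line; its control libraries are labelled wild type and untreated, and the others Tcf7 induced. Per the file headers, all 4 fibroblast libraries carry Cas9, an empty LRG21 vector, pIND21 and 72 hours in their names, and dox stands in the names of the induced libraries only, so TCF-1 and doxycycline cannot be told apart. The sources used here do not say whether the knockout is 1 clone, how the Tcf7 gene was cut, or whether both libraries of a group stem from 1 culture; p-values therefore cover the variation between libraries alone, technical variation included.

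The T cell receptor has no enzyme of its own. Its CD3 and zeta chains are phosphorylated by the Src family kinases Lck and Fyn, the kinase Zap70 docks on the phosphorylated chains, and Zap70 phosphorylates the adaptors LAT and SLP-76 (Lcp2), on which phospholipase C gamma 1, Vav1 and other enzymes gather. CD45 (Ptprc) removes the inhibitory phosphate of Lck that the kinase Csk puts on. At the DN3 stage the same machinery works below the pre-T cell receptor, which pairs a rearranged beta chain with the invariant chain pre-T alpha (Ptcra) and signals for beta selection.

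Libraries held 9847239 and 10392402 gene counts in the empty vector group, 7740198 and 8217933 in the knockout, 16174002 and 17523677 in normal 3T3, and 13850213 and 16857868 in induced 3T3. Levels are CPM, a gene's count relative to the counts of all genes with enough reads to be tested in its library, on the usual CPM scale. They are adjusted by TMM, which corrects for differences in library composition. Tcf7 itself stood at 1318 and 1325 CPM in control cells and at 646 and 624 CPM in knockout cells. That is a log2 fold change of -1.06 (SE 0.06, edgeR's quasi-likelihood test, Benjamini-Hochberg adjustment over all tested genes, adjusted p = 5.06e-08), so its RNA was lower and not lost, and gene counts do not show whether the remaining RNA encodes TCF-1. In 3T3, Tcf7 went from 14.4 and 14.6 CPM to 946 and 972 CPM. Of the 9 DN3 thymocyte markers, Notch1, Il2ra, Dtx1, Rag1 and Ptcra were expressed in all 4 Scid.adh libraries and fell in the knockout, with Ptcra at 71.7 and 73.5 against 47.9 and 45.1 CPM. Bcl11b, Gata3 and Notch3, also expressed, at 207 CPM or more in every library, did not pass, with log2 fold changes of 0.01, 0.12 and 0.04. Rag2 lay under 1 CPM in every library, as did the receptor constant genes Trac and Trdc, and Trbc2 lay between 19.97 and 25.19 CPM. B cell markers summed to at most 1.09 CPM in any Scid.adh library, and the 7 myeloid markers to 7.56 and 4.80 CPM in control and 9.97 and 10.4 CPM in knockout cells, mostly Itgam, which rose (log2 fold change 0.85). Of the 10 fibroblast markers, Col1a1 (2.22) and Col1a2 (1.78) rose while staying below 3 CPM. Pdgfrb fell from 120 and 125 CPM to 4.38 and 3.80 CPM. Thy1, on the same list, fell from 554 and 589 CPM to 397 and 365 CPM. It is no marker of fibroblasts against Scid.adh here, as it lay at 98.0 and 88.1 CPM in normal 3T3. The part of other cells in the results was not tested. The knockout libraries detected 20406 and 20463 genes against 18084 and 18041 in control cells, and log2 fold changes in Scid.adh moved with level: the median over all tested genes was 0.85 below 2 CPM, 0.35 from 2 to 5 CPM, -0.05 from 30 to 100 CPM, -0.09 from 100 to 300 CPM and -0.14 above 300 CPM. The part of this drift in the results was not tested.

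For 30 of the 40 genes, promoter windows of 250 bases before the transcription start were found in RefSeq (GRCm38.p6), 39 windows in all. They were searched on both strands for the TCF/LEF letters CTTTGAA, for the variant CTTTGAT and for the variant CTTTGTT. At least 1 match lay in a window of 8 of the 30 genes (26.7%, 95% Wilson interval 14.2 to 44.4), against 13.7% of the 27025 genes with a window. With CTTTGAA and CTTTGAT alone the count was 5 of 30 (16.7%, interval 7.34 to 33.6), against 8.63% of all genes. The share of all genes lay just below the first interval and inside the second. The members were not drawn at random, so neither interval tests them against all genes. By their test in the knockout, 3 of 7 genes that rose, 2 of 6 that fell, 3 of 13 that did not pass and 0 of 4 that were not tested held a match. The windows below belong to 3 members that rose (Trat1 with 2 matches, Cd96, Ptprc), to the downstream of the 2 Lck windows, and to Cd3d and Cd3g, neighbours of which one holds a match and one does not. Capitals mark the match, written 5′ to 3′ on the gene's strand. A match on the opposite strand reads as its reverse complement, which is ATCAAAG in the Cd3d window and AACAAAG in the Lck and Trat1 windows.
Trat1: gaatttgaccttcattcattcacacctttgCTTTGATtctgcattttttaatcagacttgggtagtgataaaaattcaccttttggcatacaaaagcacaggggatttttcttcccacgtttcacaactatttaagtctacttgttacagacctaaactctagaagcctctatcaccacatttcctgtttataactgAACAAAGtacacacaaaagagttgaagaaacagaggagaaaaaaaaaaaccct
Cd96: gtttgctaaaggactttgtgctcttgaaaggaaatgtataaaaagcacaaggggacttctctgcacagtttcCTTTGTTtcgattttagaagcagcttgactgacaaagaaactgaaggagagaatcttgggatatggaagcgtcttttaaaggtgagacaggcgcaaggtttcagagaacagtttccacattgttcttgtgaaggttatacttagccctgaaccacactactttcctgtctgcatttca
Ptprc: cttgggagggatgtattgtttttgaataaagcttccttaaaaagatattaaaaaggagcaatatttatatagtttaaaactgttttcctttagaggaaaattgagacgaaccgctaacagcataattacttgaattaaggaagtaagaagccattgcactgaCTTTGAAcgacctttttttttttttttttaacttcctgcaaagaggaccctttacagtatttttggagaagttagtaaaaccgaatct
Lck: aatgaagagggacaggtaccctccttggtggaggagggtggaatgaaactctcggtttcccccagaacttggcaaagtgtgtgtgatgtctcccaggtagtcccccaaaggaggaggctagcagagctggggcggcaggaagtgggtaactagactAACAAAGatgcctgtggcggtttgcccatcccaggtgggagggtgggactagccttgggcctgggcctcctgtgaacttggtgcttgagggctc
Cd3d: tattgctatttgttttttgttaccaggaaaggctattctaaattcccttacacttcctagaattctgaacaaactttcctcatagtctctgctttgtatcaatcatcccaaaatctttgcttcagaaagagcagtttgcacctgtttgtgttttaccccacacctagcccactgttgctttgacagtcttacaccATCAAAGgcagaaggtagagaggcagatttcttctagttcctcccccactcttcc
Cd3g: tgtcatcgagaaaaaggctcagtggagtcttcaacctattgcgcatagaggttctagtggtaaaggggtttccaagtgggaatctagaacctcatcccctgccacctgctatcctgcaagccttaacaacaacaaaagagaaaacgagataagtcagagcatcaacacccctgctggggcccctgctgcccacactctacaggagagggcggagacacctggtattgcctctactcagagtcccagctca
The Trat1 window is chr16:48772063-48772312 on the minus strand, with CTTTGAT starting 220 bases and the reverse complement of CTTTGTT 53 bases before the start. The Cd96 window is chr16:46120249-46120498, also on the minus strand, with CTTTGTT at 178 bases. The Ptprc window, the upstream one of 2, is chr1:138175306-138175555 on the minus strand, with CTTTGAA at 88 bases. The Lck window is chr4:129558373-129558622 on the minus strand, inside the gene as GENCODE draws it, with the reverse complement of CTTTGTT at 94 bases. The Cd3d window is chr9:44981536-44981785 on the plus strand, with the reverse complement of CTTTGAT at 55 bases. The Cd3g window is chr9:44980432-44980681 on the minus strand, with no match. Fyn, Txk and Ptpn22 make up the other genes with a match, and a match is a run of letters, not a measured binding site.

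In Scid.adh, 34 of the 40 members had enough reads to be tested, each of them above the filter in all 4 libraries. In the knockout, 8 members rose (Trat1, Cd96, Cd28, Zap70, Grap2, Themis, Ptprc and Plcg1), 8 fell (Cd2, Rasgrp1, Skap1, Cd3g, Ubash3a, Fyn, Lck and Cd3e) and 18 did not pass an adjusted p of 0.05. These are bulk cultures, in which fewer cells that express a gene and less RNA per cell cannot be told apart. Of all 11941 tested genes, 31.5 percent were called, 15.6 percent up and 15.9 percent down. The median log2 fold change of the 34 was -0.04, and that of all tested genes -0.0039. Most changes were small: 11 of the 16 called members changed by less than 1.5-fold, and Trat1 alone passed edgeR's test against a change of 1.5-fold, which 6.06 percent of all genes passed (4.73 percent up and 1.33 percent down). The groups did not overlap in 27 of the 34, against 66.7 percent of all tested genes. Without empty vector replicate 1 the counts were 4 up and 5 down: Zap70, Grap2, Themis, Ptprc, Plcg1, Lck, Ubash3a and Cd3e no longer passed, and Ptpn22 (log2 fold change 0.53) passed. Trat1, Cd28, Cd2, Rasgrp1, Skap1, Cd3g and Fyn kept direction and call in all 13 alternative analyses, the stricter 1.5-fold test apart.

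**Figure D1:**
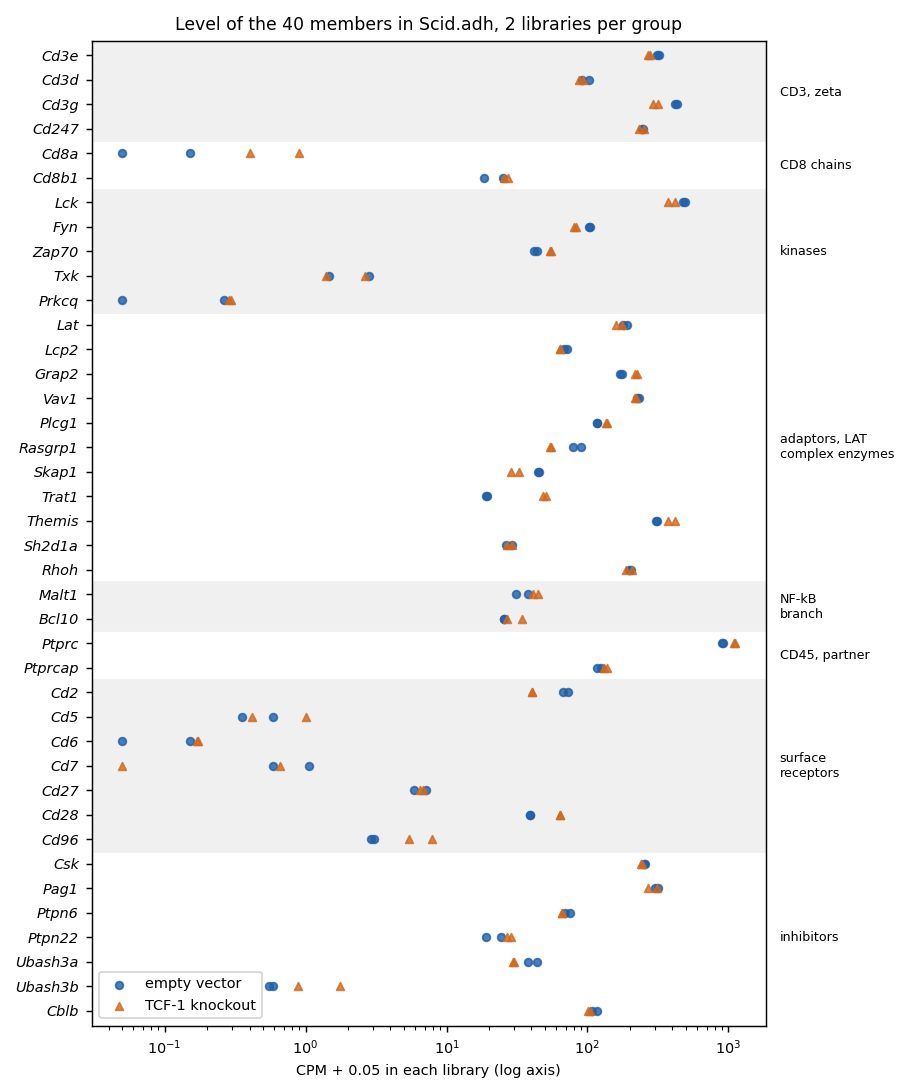
Level of the 40 members in Scid.adh in CPM plus 0.05 on a log axis, circles for the 2 empty vector libraries and triangles for the 2 knockout libraries, with members grouped by role. Of the 40, 31 have a mean of at least 10 CPM, while Cd8a, Prkcq, Cd5, Cd6, Cd7 and Ubash3b lie below 2 CPM in every library.

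The signalling chains of the receptor were all expressed, and they moved unequally. Per kilobase of exon in control cells, the order was Cd3g (130 CPM per kilobase), Cd3e (77.3), Cd3d (53.4) and Cd247 (46.1). The 3 CD3 genes lie side by side on chromosome 9 (GRCm38, 44969572 to 45009627), where 1355 bases separate Cd3g from Cd3d, which are transcribed away from each other, and 11401 bases separate Cd3d from Cd3e.

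Cd3g, the gamma chain, lay at 418 and 432 CPM in control cells and at 315 and 290 CPM in knockout cells. Its log2 fold change was -0.49 (SE 0.06, edgeR's quasi-likelihood test, adjusted p = 0.00015). Cd3e, the epsilon chain that pairs with both gamma and delta, lay at 320 and 310 CPM against 276 and 269 CPM. Both knockout libraries lay below both empty vector libraries for each of these genes, and all genes of their level classes had medians of -0.14 (Cd3g) and -0.09 (Cd3e). The Cd3e difference was smaller (log2 fold change -0.21, SE 0.06, edgeR adjusted p = 0.018), and it was lost without either empty vector library, in DESeq2, with upper-quartile scaling (-0.13) and with a filter at a mean of 5 CPM (-0.16). Cd3d, the delta chain, lay at 102 and 92.1 CPM against 92.7 and 86.9 CPM. Its groups overlapped, with a log2 fold change of -0.11 and a 95% interval of -0.29 to 0.06. Cd247, the zeta chain that carries most of the phosphorylation motifs, lay at 243 and 248 CPM against 251 and 231 CPM, with overlapping groups and an interval of -0.17 to 0.11. Of Cd247's exon bases, 56.4% overlap Pou2f1 on the opposite strand, and no source used here says whether counting used the strand, so reads of the 2 genes may not be separated.

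The ratio of Cd3g to Cd3d per kilobase was 2.28 and 2.60 in control cells and 1.89 and 1.85 in knockout cells. The ratio of Cd247 to Cd3e was 0.582 and 0.611 against 0.695 and 0.659. In both ratios the knockout libraries lay outside the range of the empty vector libraries, and neither ratio was tested. Of the 3 tested genes next to the cluster on the Cd3g side, Atp5l, Gm30934 and Ube4a, none passed the edgeR test, and Ube4a, a ubiquitin ligase and the nearest, had a log2 fold change of 0.0011. On the Cd3e side Mpzl3 (-0.60) and Scn2b (-0.96) fell, and Jaml did not pass.

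Of the co-receptor chains, Cd8b1 was detected at 18.5 and 25.2 CPM in control cells and at 27.4 and 25.6 CPM in knockout cells. The knockout libraries lay just above the others, and the difference did not pass (log2 fold change 0.28, 95% interval -0.05 to 0.61). Its partner Cd8a, 35933 bases away on chromosome 6, had 1 and 0 reads against 7 and 3 reads and was not tested. The beta chain needs the alpha chain to reach the cell surface in textbook accounts, and the surface was not measured here.

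Among the kinases, the 2 Src family members fell and the kinase that acts after them rose. Lck was the highest of all 40 members per kilobase of exon, at 166 CPM per kilobase in control cells and 135 in the knockout. In CPM, Lck lay at 495 and 475 against 417 and 376. Both knockout libraries were lower, by a log2 fold change of -0.29 (SE 0.07, edgeR adjusted p = 0.0052), in a level class with a median of -0.14. Fyn, which shares substrates with Lck, lay at 103 and 105 CPM against 82.9 and 80.1 CPM. It fell by 0.35 on the log2 scale (SE 0.08, edgeR adjusted p = 0.0041), with no overlap. Zap70 lay at 43.7 and 41.5 CPM against 54.5 and 54.9 CPM. It rose, with a log2 fold change of 0.36 (SE 0.10, edgeR adjusted p = 0.013). The call for Zap70 was lost in DESeq2 and without either empty vector library, with log2 fold changes of 0.31 to 0.39 there. The level ratio of Lck to Zap70 per kilobase was 11.6 and 11.7 in control cells and 7.82 and 6.99 after the knockout, while that of Lck to Fyn was 7.17 and 6.76 against 7.49 and 6.99.

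The remaining kinases were near the limit of detection. Txk, a Tec family kinase, lay between 1.34 and 2.78 CPM in all 4 libraries with overlapping groups. Prkcq, the protein kinase C isoform that links the receptor to NF-kB in mature T cells, had at most 2 reads in any library.

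Of the 11 adaptors and enzymes around LAT, the largest role group, 4 rose, 2 fell and 5 did not pass (54.5% called, where 31.5 percent of all tested genes were). The scaffold itself did not pass: Lat lay at 180 and 190 CPM in control cells and at 177 and 160 CPM in knockout cells (log2 fold change -0.14, 95% interval -0.29 to 0.01). It passed in 2 of the 13 alternative analyses. Its partner SLP-76 (Lcp2) lay at 71.3 and 68.5 CPM against 63.8 and 63.6 CPM, with an interval of -0.32 to 0.05. Vav1, an exchange factor for Rac, lay at 232 and 224 CPM against 220 and 219 CPM, with an interval of -0.19 to 0.08. For all 3 the knockout libraries lay below the others, by less than the test could separate from their spread.

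Trat1, a transmembrane adaptor associated with the receptor (also called TRIM), rose most of the 34 tested members. It lay at 19.4 and 19.1 CPM in control cells and at 48.3 and 50.7 CPM in knockout cells. That is 2.57-fold higher (log2 fold change 1.36, SE 0.11, edgeR adjusted p = 3.73e-06), and the 2 libraries of each group lay close together. The gene lies on chromosome 16 (48730774 to 48772021). Of the tested genes nearest to it on either side, Morc1 did not pass (log2 fold change 0.07) and Dzip3 rose (0.32). Trat1's promoter window is the one shown above with 2 matches.

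Grap2 (Gads), the adaptor that bridges LAT and SLP-76, lay at 172 and 176 CPM against 224 and 218 CPM. It rose (log2 fold change 0.34, SE 0.06, edgeR adjusted p = 0.0015), so its ratio to Lcp2 per kilobase was 1.72 and 1.84 in control cells and 2.51 and 2.44 in knockout cells. Themis, an adaptor needed for thymocyte selection, lay at 308 and 313 CPM against 371 and 416 CPM. It rose by 0.34 on the log2 scale (SE 0.07, edgeR adjusted p = 0.0023), with knockout libraries that were further apart than the controls. Plcg1, the phospholipase that makes diacylglycerol and inositol trisphosphate, lay at 117 and 116 CPM against 135 and 138 CPM. Its rise was small (log2 fold change 0.23, SE 0.07, edgeR adjusted p = 0.019) and was lost in DESeq2, without a filter on low counts, and without either empty vector library.

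Rasgrp1, the Ras exchange factor that diacylglycerol recruits, went the other way. It lay at 90.2 and 79.1 CPM in control cells and at 55.2 and 54.6 CPM in knockout cells. The fall was 1.54-fold (log2 fold change -0.63, SE 0.09, edgeR adjusted p = 0.00035). Skap1, an adaptor in the path from the receptor to integrins, lay at 45.2 and 44.5 CPM against 32.7 and 28.6 CPM. It fell by 0.55 on the log2 scale (SE 0.11, edgeR adjusted p = 0.0027). For both genes the highest knockout library lay below the lowest empty vector library. Rhoh, a small GTPase without GTPase activity that helps recruit Zap70, had a log2 fold change of -0.0043 (95% interval -0.15 to 0.14). Sh2d1a (SAP), the adaptor of SLAM receptors, had 0.01 (-0.25 to 0.28), and 26.6% of its exon bases overlap Tenm1 on the other strand.

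**Figure D2:**
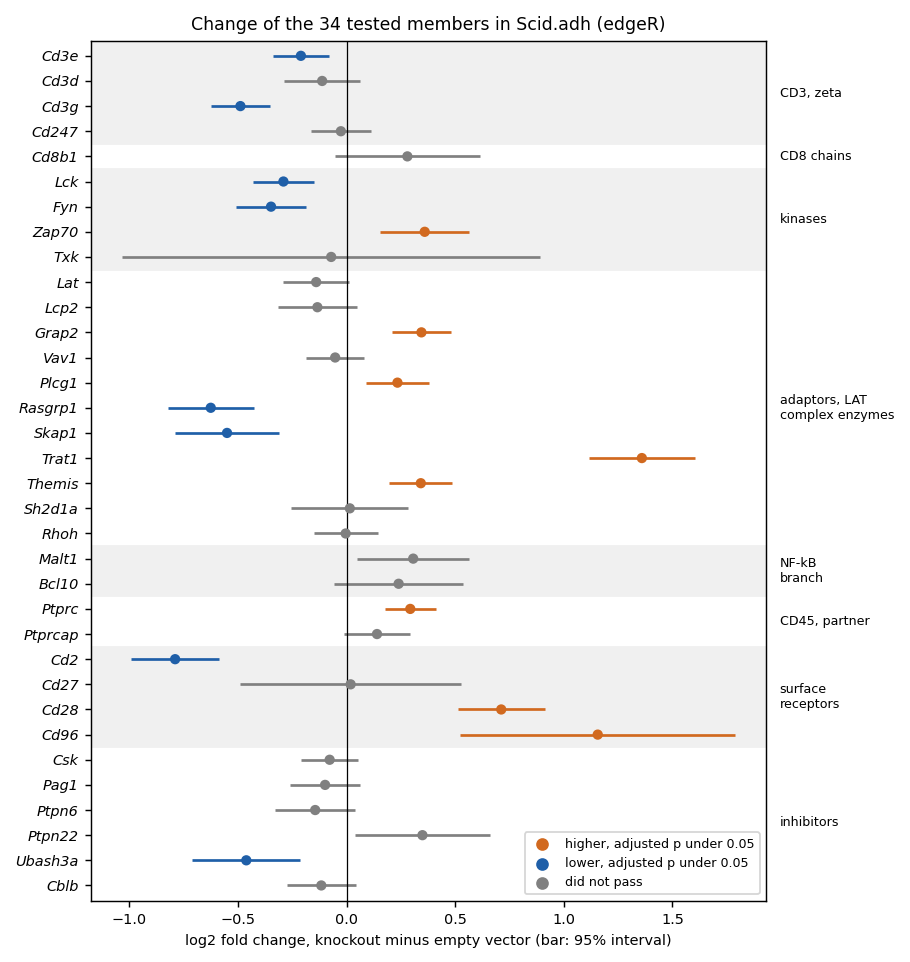
Log2 fold change of the 34 tested members, knockout minus empty vector, with 95% intervals from the edgeR fit, grouped by role. Orange marks the 8 members that rose, blue the 8 that fell and grey the 18 that did not pass; Trat1 (1.36) and Cd2 (-0.79) are the extremes.

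Malt1 and Bcl10, which carry the signal to NF-kB, did not pass in Scid.adh. Malt1 lay at 31.2 and 37.7 CPM against 40.7 and 44.4 CPM, without overlap (log2 fold change 0.31, edgeR adjusted p = 0.066). It passed in 6 of the 13 alternative analyses. Bcl10 lay at 25.7 and 25.7 CPM against 34.05 and 26.70 CPM, with an interval of -0.06 to 0.54.

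Ptprc, encoding CD45, had the most reads of all members. It lay at 911 and 905 CPM in control cells and at 1103 and 1122 CPM in knockout cells. It rose by 0.29 on the log2 scale (SE 0.05, edgeR adjusted p = 0.0016), while genes of its level class had a median of -0.14; the call was lost without either empty vector library. Csk, which opposes CD45 on Lck, lay at 258 and 253 CPM against 241 and 243 CPM and did not pass (log2 fold change -0.08, 95% interval -0.21 to 0.05). The ratio of Ptprc to Csk per kilobase was therefore 0.721 and 0.730 in control cells and 0.934 and 0.942 in knockout cells, and it was not tested. Gene counts do not separate the splice forms of CD45. Ptprcap, the CD45-associated protein, lay at 125 and 117 CPM against 137 and 131 CPM and did not pass. Of its exon bases, 76.0% overlap Rps6kb2 on the other strand and 26.8% overlap Coro1b on the same strand.

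Of the 4 surface receptors tested, 2 rose, 1 fell and 1 did not pass (75.0% called, where 31.5 percent of all tested genes were). Cd2, an adhesion receptor that binds CD48 in the mouse, fell and Cd28, the main co-stimulatory receptor, rose. Cd2 lay at 72.2 and 66.6 CPM in control cells and at 40.2 and 40.1 CPM in knockout cells. This was the largest fall among the 34 tested members, 1.73-fold (log2 fold change -0.79, SE 0.09, edgeR adjusted p = 7.82e-05). Cd28 lay at 39.2 and 38.8 CPM against 63.6 and 64.1 CPM. It was 1.64-fold higher (log2 fold change 0.71, SE 0.09, edgeR adjusted p = 0.00016). In each gene the groups lay further apart than the libraries within them. The ratio of Cd28 to Cd2 per kilobase went from 0.154 and 0.165 to 0.449 and 0.454, and this ratio was not tested.

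Beside Cd2 on chromosome 3, the nearest tested genes were Ptgfrn, which did not pass (log2 fold change -0.11), and Igsf3, which rose (1.28). Beside Cd28 on chromosome 1, the nearest tested genes Raph1 and Pard3b lay below 2 CPM and did not pass. Cd96, an immunoglobulin family receptor of T and natural killer cells, was low, at 3.02 and 2.88 CPM against 5.35 and 7.83 CPM. It rose (log2 fold change 1.16, SE 0.29, edgeR adjusted p = 0.0099), while the median of all genes between 2 and 5 CPM was 0.35, and the call was lost without knockout replicate 2 (0.86). Natural killer and innate lymphoid markers summed to 0.302 and 0.320 CPM in control cells and to 1.95 and 1.19 CPM in knockout cells over 7 genes, with Ncr1 and Klrd1 at 0 in all 4 libraries. Cd27, a tumour necrosis factor receptor family member, lay between 5.87 and 7.15 CPM and did not pass. Cd5 and Cd6, scavenger receptors that dampen the receptor signal and neighbours on chromosome 19, and Cd7 were not tested: Cd5 had 3 to 8 reads a library, Cd6 at most 1, and Cd7 at most 10.

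**Figure D3:**
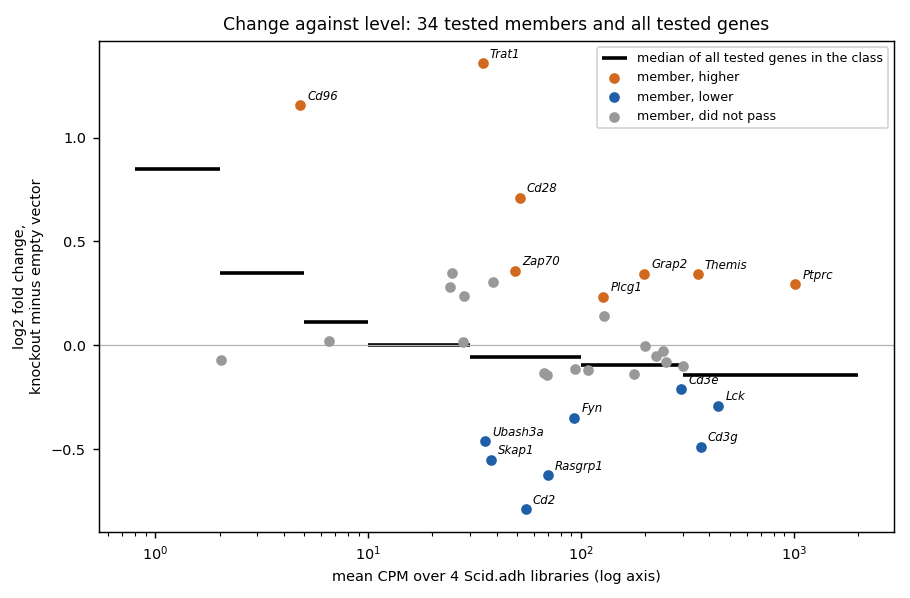
Log2 fold change in Scid.adh against mean CPM on a log axis, points for the 34 tested members and black lines for the median of all tested genes in each level class. The class medians go from 0.85 at the lowest levels to -0.14 above 300 CPM, and Themis, Ptprc, Trat1 and Cd28 lie above the line of their class while Cd2, Rasgrp1 and Cd3g lie below it.

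Of the 6 inhibitors tested, 1 fell and 5 did not pass (16.7% called, where 31.5 percent of all tested genes were). Ubash3a (Sts-2), a negative regulator of receptor signalling, lay at 43.7 and 38.1 CPM against 30.03 and 29.43 CPM. It fell by 0.46 on the log2 scale (SE 0.12, edgeR adjusted p = 0.0091); the call was lost without empty vector replicate 1 (-0.37). Its relative Ubash3b (Sts-1) was not tested, with 5 and 5 reads against 14 and 7 reads. Pag1, the membrane anchor of Csk, lay at 319 and 303 CPM against 267 and 314 CPM, with overlapping groups. Ptpn6 (SHP-1) and the ubiquitin ligase Cblb did not pass, with log2 fold changes of -0.14 (-0.33 to 0.04) and -0.12 (-0.28 to 0.04). Ptpn22, the phosphatase that works with Csk, lay at 24.4 and 19.0 CPM against 26.9 and 28.5 CPM, without overlap (log2 fold change 0.35, edgeR adjusted p = 0.084).

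Genes further along the pathway were taken from lists of 111 genes that do not include the 40. Of the 94 tested in Scid.adh, 17 rose, 20 fell and 57 did not pass (39.4% called, against 31.5 percent of all tested genes). In the calcium and NFAT list 1 of 14 rose and 4 fell: Nfatc2, a transcription factor that calcineurin activates, went from 118 and 123 CPM to 59.6 and 67.4 CPM (log2 fold change -0.92), and the inositol trisphosphate receptor Itpr1 from 275 and 284 to 184 and 212 CPM (-0.50). The calcium channel subunit Orai3 (-0.48) and Itpr3 (-0.22) fell as well. Of the Ras and MAP kinase list, Grb2 rose (0.40), Hras fell (-0.27) and 12 of 14 did not pass. Of the NF-kB genes, Nfkb1 fell from 401 and 375 to 230 and 246 CPM, and Rela (-0.42) and the deubiquitinase Tnfaip3 (-0.79) fell as well.

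The lipid list shows a pair of diacylglycerol kinases, which remove the lipid that recruits Rasgrp1. Dgka rose from 15.9 and 13.7 CPM to 35.9 and 29.0 CPM (log2 fold change 1.13), and Dgkz fell from 262 and 258 to 203 and 216 CPM (-0.31). Akt2, a kinase below PI3K, fell (-0.28). In the list of Tec kinases, actin and integrins 3 of 14 rose and 5 fell (57.1% called, where 31.5 percent of all tested genes were). Nck1 rose (0.45), while the actin regulator Was fell (-0.44), as did Itgal (-0.40) and Itgb2 (-0.31), the 2 chains of the integrin LFA-1. Skap1, described above, belongs to the route that activates this integrin.

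The list of further inhibitors and feedback genes had 6 of 17 up and 1 down (41.2% called). Of all tested genes 31.5 percent were called, 15.6 percent up and 15.9 percent down. Lag3, an inhibitory receptor that binds MHC class II, had 0.101 and 0.427 CPM in control cells and 70.4 and 64.8 CPM in knockout cells (log2 fold change 7.95), the largest change in these lists. The adaptor Sh2d2a (1.49) and the phosphatase Ptprj (1.19) rose, and the phosphatase Dusp5 fell (-1.37). Of the further receptors Slamf6 fell (-0.60). In the list of genes that respond to the receptor, Il2ra, also a DN3 marker above, fell from 1259 and 1264 to 797 and 845 CPM. Myc fell from 502 and 494 to 351 and 371 CPM, while Nr4a2 (1.14) and Junb (1.18) rose at under 10 CPM. Signalling through the receptor was not measured. The log2 fold changes in these paragraphs on the lists are for genes that passed edgeR's test at an adjusted p under 0.05.

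In 3T3 fibroblasts most of the machinery was near or below the limit of detection, and 14 of the 40 members were tested. The mean lay below 1 CPM in 28 members, including Cd3d, Cd3g, Zap70, Lat, Lcp2, Ptprc, Cd2 and Cd28. The 3 highest in CPM were Plcg1, Fyn and Cblb, which other cell types also use. Cd3e was listed between 5.57 and 6.49 CPM and Cd247 between 9.07 and 10.3 CPM. Part of the Cd247 reads may belong to Pou2f1, as above. After induction of TCF-1, 2 members rose (Csk and Cd5), 4 fell (Pag1, Malt1, Cblb and Plcg1) and 8 did not pass. Of all 18185 tested genes 36.8 percent were called, 18.5 percent up and 18.3 percent down. The tested receptor chains Cd3e and Cd247, the kinases Lck and Fyn, and Ptprcap did not pass. Groups did not overlap in 11 of the 14, against 65.1 percent of all tested genes.

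Pag1 and its partner Csk moved in opposite directions in 3T3. Pag1, which holds Csk at the membrane, lay at 14.3 and 14.3 CPM in normal and at 6.95 and 7.50 CPM in induced cells. It fell 1.99-fold (log2 fold change -0.99, SE 0.12, edgeR adjusted p = 2.54e-09) and was the 1 member that passed the test against 1.5-fold, as 5.04 percent of all genes did (2.64 percent up and 2.4 percent down). Csk itself lay at 45.3 and 45.4 CPM against 56.2 and 60.0 CPM and rose (log2 fold change 0.35, SE 0.06, edgeR adjusted p = 5.32e-06). Both kept direction and call in the 13 alternative analyses, the 1.5-fold test of Csk apart.

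Plcg1 lay at 183 and 172 CPM in normal and at 160 and 150 CPM in induced cells. It fell by 0.19 on the log2 scale (edgeR adjusted p = 0.00033), a call lost without normal replicate 1. Cblb lay at 66.0 and 68.9 CPM against 59.2 and 57.0 CPM (log2 fold change -0.21, edgeR adjusted p = 0.0021), lost without normal replicate 2. Malt1 lay at 16.5 and 15.5 CPM against 12.2 and 13.5 CPM (log2 fold change -0.32, edgeR adjusted p = 0.012), lost in DESeq2 and without normal or induced replicate 1. Fyn, at 90.5 and 88.6 CPM against 92.8 and 88.7 CPM, had overlapping groups. Cd5 was near the detection limit, at 0.876 and 0.517 CPM against 1.65 and 1.01 CPM. Its rise (log2 fold change 0.97, edgeR adjusted p = 0.043) came with 1 of the 2 normal libraries under the filter level, and it was lost in DESeq2, without a filter, in a joint fit of all libraries, without normal replicate 2 (0.63) and without induced replicate 1 (0.55).

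**Figure D4:**
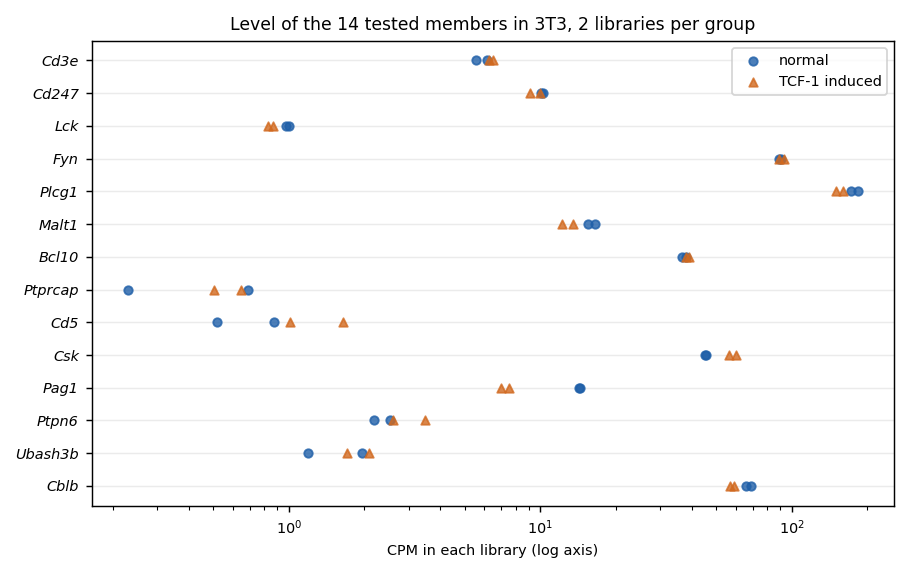
Level of the 14 tested members in 3T3 in CPM on a log axis, circles for the 2 normal and triangles for the 2 induced libraries. Plcg1, Fyn and Cblb are highest, and Pag1 is the member whose groups are furthest apart on this axis among those above 5 CPM.

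Across both lines, 12 members were tested in each, and Plcg1 alone was called in both. Of all tested genes, 31.5 percent were called in Scid.adh and 36.8 percent in 3T3, and the share called in both was not counted. Plcg1 rose in the Tcf7 knockout of Scid.adh and fell with induction in 3T3, and the difference between lines was not tested. Its call was lost in at least 1 alternative analysis in each line, as given above. Csk, Pag1 and Cblb, called in 3T3, had log2 fold changes of -0.08, -0.10 and -0.12 in the Scid.adh knockout, none of which passed. Malt1, which fell in 3T3 (-0.32), had a log2 fold change of 0.31 in the knockout, with an edgeR adjusted p of 0.066 and a pass in 6 of the 13 alternative analyses. Lck, Fyn and Cd3e, which fell in the knockout, had log2 fold changes of -0.23, 0.02 and 0.12 in induced 3T3, none of which passed.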

How the data were processed

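Raw gene counts were deposited, 1 table per library, made from paired-end RNA-seq reads. Per the labels' protocols, total RNA was taken with the RNeasy Plus Micro Kit and libraries were prepared from it with the SMARTer Stranded kit for low input. Per the submitters' processing notes, STAR 2.5.0a, HTSeq 0.6.1 and the build GRCm38 (mm10) were used. Not given in the sources used here: strand setting, annotation release and treatment of duplicates. The deposited Scid.adh tables also hold summary rows, which were left out; the share of no-feature reads was 21.3% and 21.6% in control and 22.3% and 25.8% in knockout libraries.

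Each line was fitted on its own: filterByExpr, TMM scaling, edgeR 4.0.16 robust quasi-likelihood test in R 4.3.3, with Benjamini-Hochberg adjustment over all tested genes and a call at an adjusted p under 0.05. Intervals use the t quantile of each gene's fit. Positions and exon overlaps came from GENCODE, promoters from RefSeq, and levels per kilobase use the union of exons. The test was tried on simulated counts for Scid.adh (11454 genes), where it found 36.2% of 1.25-fold, 58.0% of 1.5-fold, 71.4% of 2-fold and 91.7% of 4-fold changes. For 3T3 (17772 genes) it found 34.7%, 69.4%, 81.3% and 100.0%. Only 47 to 50 genes per fold size were changed in each line, drawn from all levels. That is far fewer than the genes called in the data, so these shares need not hold for the members.

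Every called member in Scid.adh is named with its values, as is the highest of each role group, and uncalled members are set beside called ones of their complex; in 3T3, every called member and the 3 highest. From each further list, up to 4 called genes are named by size of change, if their mean reached 5 CPM; the neighbouring genes and the ratios were singled out after their values were seen. The members and lists were chosen with earlier results of these data known, so no test was run over a list. Some results are not reported here.

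Replicates differed by more than sampling noise and were counted separately. The chi-square per degree of freedom was 1.17 in normal 3T3, 1.91 in induced 3T3, 1.97 in the empty vector group and 6.89 in the knockout group. edgeR put the biological coefficient of variation at 2.41% for 3T3 and at 5.94% for Scid.adh.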

Additional observations from a re-analysis of the deposited data

How the results depend on the processing

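Alternatives were DESeq2 size factors in edgeR, upper-quartile factors, DESeq2, limma-voom, no filter on low counts, a mean of at least 1 CPM, a replicate block, a joint fit of 8 libraries, a test against 1.5-fold, each library left out in turn, and, chosen after seeing the data, a mean of at least 5 CPM. In Scid.adh, upper-quartile factors shifted the median of all genes by 0.08 and gave 66.9% of calls up, against 49.5% as reported, with 1215 genes down against 1899 as reported. DESeq2 called 880 up (1861 as reported) and 1080 down, with 9 of the further pathway genes up against 17, and the mean of at least 5 CPM gave 1251 down. The test against 1.5-fold left 565 genes up and 159 down, 1 member up and 0 down (16 members had passed the plain test), and 5 and 2 further pathway genes. In 3T3, DESeq2 called 1977 up and 2035 down, 1 member up and 9 further pathway genes up. The joint fit gave 1 member up and 11 further pathway genes up, and no filter or a mean of at least 5 CPM gave 1 member up. The test against 1.5-fold gave 480 up and 437 down in 3T3, 0 members up and 1 down, and 0 and 3 further pathway genes. The motif share of members was 60.0% with CTTTG alone, against 52.2% of all genes. The cause of these moves was not tested, beyond the smaller set that a stricter test or filter leaves by construction.

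With libraries left out in turn, Scid.adh gave 4 to 9 members up and 5 to 9 down, 1059 to 1911 genes up and 1162 to 2321 down, and 10 to 18 and 12 to 24 further pathway genes. In 3T3 it gave 1 to 2 members up and 2 to 4 down, 2344 to 3391 genes up and 2409 to 3418 down, and 10 to 21 and 17 to 28 further pathway genes. A lone library left in a group is assumed to vary like the other group. Without an empty vector library, the knockout libraries, whose replicates differed most, set that variation. A call lost there can therefore come with a nearly unchanged log2 fold change.

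Of the members that had not passed in Scid.adh, Malt1 passed in 6 of the 13 alternative analyses, Ptpn22 in 4, and Lat and Ptprcap in 2 each. Bcl10, Cd8b1 and Pag1 passed in at least 1. Signs turned only for members that had not passed. In Scid.adh, Rhoh was 0.0013 with DESeq2 size factors, 0.075 with upper-quartile factors, 0.0012 in DESeq2, 0.00036 with a minimum mean of 1 CPM and 0.051 with one of 5 CPM. Upper-quartile factors gave 0.053 for Cd247, 0.0071 for Txk, 0.027 for Vav1 and 0.0012 for Csk, and a mean of at least 5 CPM gave 0.029 for Cd247 and 0.0026 for Vav1. Sh2d1a was -0.041 with no filter and -0.00798 in the joint fit, and Cd27 -0.037 and -0.0054. With libraries left out, log2 fold changes were -0.63 to 0.47 for Txk, -0.067 to 0.076 for Sh2d1a, -0.072 to 0.054 for Rhoh, -0.13 to 0.16 for Cd27, -0.22 to 0.0012 for Pag1 and -0.095 to 0.034 for Cd247. In 3T3 they were -0.053 to 0.66 for Ubash3b, -0.24 to 1.31 for Ptprcap and -0.0088 to 0.052 for Fyn.

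The labels number replicates 1 and 2 in every group, but deviations of same-numbered libraries correlated at 0.10 in 3T3 and -0.01 in Scid.adh, so the numbers are not taken to pair the libraries. With a replicate block, 10 members rose (Malt1 and Ptpn22 added) and 8 fell in Scid.adh, and 2 and 4 in 3T3. Too few reads were counted for the 6 members not tested in Scid.adh, which had at most 31 reads each over 4 libraries.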
